A study of Mus musculus with 2 samples.

Results

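The small leucine-rich proteoglycans are secreted proteins that bind collagen fibrils in the matrix. Of the 9 genes named for the group (Lum, Dcn, Bgn, Fmod, Ogn, Aspn, Prelp, Podn and Omd), 7 were measured among the 14886 protein-coding genes counted, and Aspn and Podn were not analysed here. The genes were picked by symbol, with their values in this same comparison already known, so those values are given as a description with no test. The data are ribosome profiles of mouse lung fibroblasts, with 1 IR library and 1 NC library. What IR and NC stand for is not written in the labels, which also give no strain, age, dose, time, culture or passage, so neither group can be described further. Cells of both groups were treated with cycloheximide, which halts elongating ribosomes, before lysis and nuclease digestion. By its title, the series is about rosmarinic acid in lung fibrosis after radiation, a scarring in which fibroblasts turn into contractile, matrix-secreting myofibroblasts. According to the design text, the ribosome profiles served to look for mRNAs affected downstream.

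Each of these proteoglycans has a short core protein built from repeated leucine-rich segments, which fold into a curved solenoid. Many carry chains of chondroitin, dermatan or keratan sulfate. Through the core protein they attach to the surface of collagen fibrils and affect fibril diameter and spacing. Several also bind growth factors, among them TGF-beta, or receptors of innate immunity. Lumican, decorin and biglycan are made by fibroblasts of many tissues, the lung included, and lumican and decorin transcripts are commonly used to recognise fibroblasts. The family is divided into classes by sequence: decorin, biglycan and asporin form class I, lumican, fibromodulin, PRELP and osteomodulin belong to class II, osteoglycin to class III, and podocan is a more distant relative.

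Total counts were 888835 in the IR library and 695446 in the NC library. A footprint count reflects both the amount of an mRNA and the ribosomes on it, and fewer cells of a type cannot be told apart from less RNA per cell in such bulk libraries. Each group is a single library without replicates, so library and condition cannot be told apart, and every interval here is a 95% interval that covers the error of counting alone and treats reads as independent. Levels are given as CPM, counts relative to the library size after TMM scaling (trimmed mean of M values, which sets the bulk of genes equal between libraries). Genes were not compared with each other in level, because coding lengths were not used.

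Lum, which encodes lumican, a keratan sulfate proteoglycan that binds type I collagen, was the member with the widest gap between libraries among those with a mean of at least 20 counts. It had 1349 counts in the IR library (exact Poisson interval 1278 to 1423), against 222 in the NC library (194 to 253). This was a scaled level of 1705 CPM in IR and 284 CPM in NC, a fold of 6.0 of IR over NC (interval 5.2 to 6.95). The intervals of the 2 libraries do not overlap, and IR was the higher library. By read count, which also depends on gene length, Lum stood at rank 61 of all genes in IR and at rank 467 in NC. Lum (ENSMUSG00000036446) spans chromosome 10 from 97565501 to 97572703 on the plus strand (mm10) and overlaps no other protein-coding gene of the table.

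**Figure D1:**
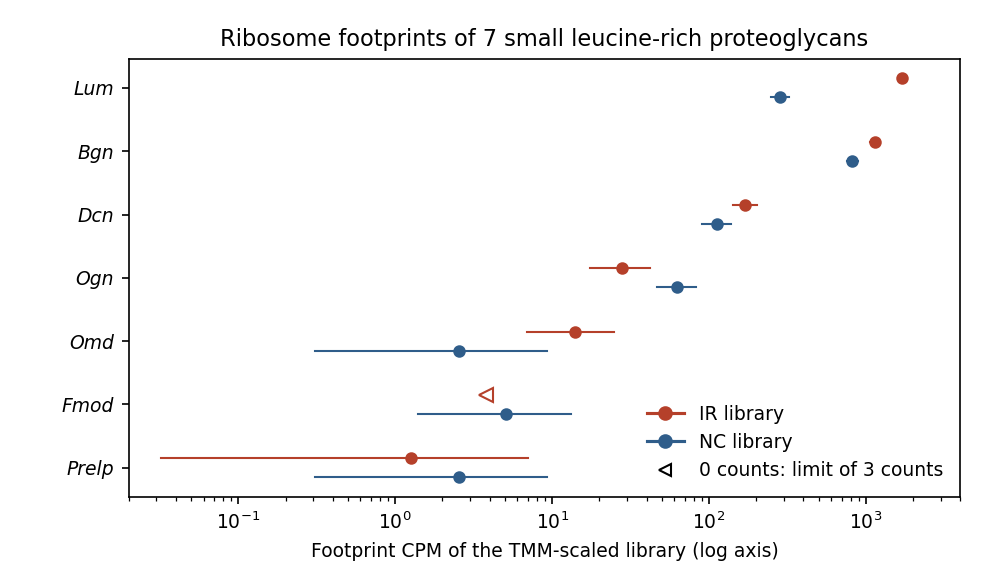
Footprint level of the 7 measured members in the IR library (red, upper of each pair) and the NC library (blue, lower), as CPM of the TMM-scaled library on a log axis; bars are exact 95% Poisson intervals and the open triangle marks the 3-count limit of a gene at 0. The widest gap with narrow bars is that of Lum, at 1705 CPM in IR and 284 CPM in NC, while Fmod and Prelp lie at a few counts in both libraries.

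The class I members differed far less. Bgn, which encodes biglycan, a chondroitin or dermatan sulfate proteoglycan that can also act as a danger signal at Toll-like receptors, had 901 counts in IR (843 to 962) and 641 in NC (592 to 693). This was 1139 CPM in IR and 820 CPM in NC, a fold of 1.39 (1.25 to 1.54). Dcn, which encodes decorin, a dermatan sulfate proteoglycan that binds type I collagen and TGF-beta, had 135 counts in IR (113 to 160) and 88 in NC (70.6 to 108). Its level was 171 CPM in IR and 113 CPM in NC, and its fold was 1.52 (1.15 to 2.01). Both were thus somewhat higher in IR under TMM scaling. Under scaling by total counts the folds were 1.10 for Bgn (0.993 to 1.22) and 1.2 for Dcn (0.911 to 1.59), and both intervals then held 1.

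Ogn, which encodes osteoglycin (mimecan), a class III member known from bone, cornea and vessel walls, went the other way. It had 22 counts in IR (13.8 to 33.3) and 49 in NC (36.3 to 64.8), or 27.8 CPM in IR and 62.7 CPM in NC. This was 2.25-fold lower in IR (1.34 to 3.92). Ogn was the only measured member with a mean of at least 20 counts that was lower in IR, and it kept that direction under each of the 6 scalings tried. It lies on chromosome 13 from 49608071 to 49624500 (plus strand), inside the span of Cenpp, a centromere protein gene on the opposite strand. Cenpp itself had 5 counts in IR and 13 in NC, and without the strand setting of the counting its reads cannot be told apart from those of Ogn.

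The remaining class II members were at a few reads each. Omd, which encodes osteomodulin (osteoadherin), a keratan sulfate proteoglycan of mineralised tissue, had 11 counts in IR (5.49 to 19.7) and 2 in NC (0.242 to 7.22). The ratio of its scaled counts was 5.43, with an interval from 1.19 to 50.4, and under total-count scaling 4.30 (0.939 to 40.0), an interval that holds 1. Omd also lies inside Cenpp, on chromosome 13 from 49582766 to 49592609. Fmod, which encodes fibromodulin, a regulator of collagen fibril assembly and cross-linking, had 0 counts in IR and 4 in NC. Its absence from the IR reads allows a level of up to 3.79 CPM there by the limit of 3 counts, or 4.66 CPM by the upper end of the exact Poisson interval, against 5.12 CPM (1.39 to 13.1) measured in NC, and the interval of the fold ran from 0 to 1.5. Prelp, which encodes a heparin-binding member that anchors basement membranes to connective tissue, had 1 count in IR and 2 in NC. Neither Fmod nor Prelp showed a difference that is detectable at this depth.

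Sequences upstream of the start were at hand in the RefSeq table of GRCm38.p6 for 7 of the 9 named genes, Lum and Dcn not among them. Those of Bgn and Ogn are shown because they are the measured members with a mean of at least 20 counts that have one, and because they lay on opposite sides of 1 between the libraries. Each is the 250 bases before the annotated start, with matches on either strand in capitals for the TATA box motif TATAAA, the CCAAT box, the GC box motif GGGCGG and the AP-1 motif TGANTCA.
Bgn, chrX:73483351-73483600, plus strand: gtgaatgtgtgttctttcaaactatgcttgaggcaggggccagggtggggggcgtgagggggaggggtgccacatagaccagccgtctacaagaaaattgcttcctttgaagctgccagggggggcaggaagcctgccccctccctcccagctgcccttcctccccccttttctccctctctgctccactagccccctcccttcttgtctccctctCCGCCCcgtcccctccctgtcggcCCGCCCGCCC
Ogn, chr13:49607765-49608014, plus strand: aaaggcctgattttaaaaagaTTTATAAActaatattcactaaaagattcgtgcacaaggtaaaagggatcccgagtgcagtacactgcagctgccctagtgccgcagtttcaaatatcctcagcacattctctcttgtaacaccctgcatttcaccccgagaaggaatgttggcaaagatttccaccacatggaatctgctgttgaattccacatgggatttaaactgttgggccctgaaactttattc
The Bgn window was 64.4% G and C and the Ogn window 42%, against a median of 52.4% over all 32851 windows of that length. The capitals in Bgn are 3 matches to the GC box GGGCGG on the opposite strand, 2 of which overlap, with first bases 34 to 6 bases before the start, and 32.7% of all windows hold that motif. Those in Ogn are 2 overlapping matches to TATAAA, 1 on each strand, with first bases 229 and 227 bases before the start, and 12.4% of all windows hold it. The CCAAT box, held by 33.8% of windows, and the AP-1 motif, held by 6.75%, had no match in either window. These matches describe the letters only.

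Read against all genes, the 4 members with a mean of at least 20 counts (Lum, Bgn, Dcn and Ogn) split in direction. Of 5989 such genes, 11.3% were at least 2-fold higher in IR and 11.4% at least 2-fold lower, on the scale of log2(scaled count + 1). Among the 4 members, 1 was at least 2-fold higher (Lum) and 1 at least 2-fold lower (Ogn). The interval of the fold lay above 1 for 3 members (Lum, Bgn and Dcn), against 23.5% of all genes, and below 1 for 1 (Ogn), against 23.7%. Since these values chose the members, nothing is read from the comparison. Scaling by total counts gave 412 genes at least 2-fold higher and 1199 at least 2-fold lower, in place of 679 and 685, and left only Lum with an interval above 1. The median log2 ratio of the 4 members was 0.53, beside -0.02 for all 5989 genes. It was 0.47 without Lum.

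**Figure D2:**
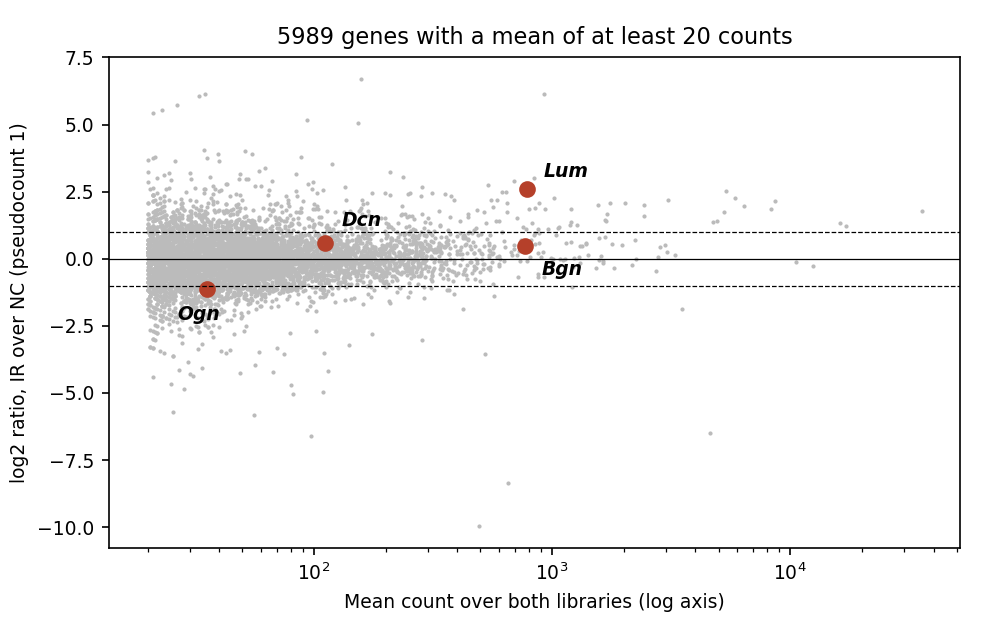
Each grey point is 1 of the 5989 genes whose mean count reached 20, placed by its mean count over both libraries (x, log axis) and its log2 ratio of IR over NC after a pseudocount of 1 (y); dashed lines mark 2-fold and the 4 red points are members. Lum lies at 2.58 near the upper edge of genes of like count, Dcn at 0.59 and Bgn at 0.47 lie between the dashed lines, and Ogn lies at -1.14.

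The log2 ratio of Lum, 2.58, was exceeded by 61 of the 5989 genes, or 1.02%. Among the 1332 genes whose mean count reached 100, which are measured more precisely, 11 had a higher ratio, or 0.826%. In that set 12.3% of genes were at least 2-fold higher in IR and 4.43% at least 2-fold lower, the fold interval lay above 1 for 38.2% and below 1 for 25.8%, and the median log2 ratio was 0.10. Lum, Bgn and Dcn were the members in it. The 5 genes whose log2 ratio lay nearest that of Lum, out of 1625 others that had both libraries above 0 and reached 100 counts in either, were Abca4, Irak1bp1, Zfp599, Ptprd and Kazn. Their likeness is a difference of 0.0045 to 0.061 in log2 ratio over 2 libraries, and their counts ran from 112 to 9209 in IR and from 18 to 1571 in NC.

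Ratios of one gene's reads to another's within a library need no scaling between libraries. Lum gave 9.99 reads per Dcn read in IR and 2.52 in NC, a ratio of ratios of 3.96 (exact conditional interval 2.88 to 5.42). Per Bgn read, Lum gave 1.5 reads in IR and 0.346 in NC, 4.32 times as many (3.62 to 5.17). The 2 class I members kept close to each other, with 6.67 Bgn reads per Dcn read in IR and 7.28 in NC, a ratio of 0.916 whose interval of 0.679 to 1.23 holds 1. An interval that holds 1 does not show that the pair did not differ. Ogn parted from all 3: the reads of Lum per Ogn read were 61.3 in IR and 4.53 in NC, those of Bgn 41.0 in IR and 13.1 in NC, and those of Dcn 6.14 in IR and 1.80 in NC.

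Against Col1a1, which encodes the main chain of type I collagen, the fibril to which lumican and decorin bind, Ogn alone of the 4 members gave fewer reads in IR. Col1a1 had 3455 counts in IR and 3124 in NC. Lum gave 0.390 reads per Col1a1 read in IR and 0.0711 in NC, 5.49 times as many (4.72 to 6.41). The ratio of ratios was 1.39 for Dcn (1.05 to 1.84), 1.27 for Bgn (1.13 to 1.42) and 0.406 for Ogn (0.233 to 0.686). Taken as shares of the members' own summed reads, Lum made up 55.8% in IR (exact binomial interval 53.8 to 57.8, of 2419 reads) and 22.0% in NC (19.5 to 24.7, of 1008 reads). Bgn made up 37.2% in IR and 63.6% in NC.

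**Figure D3:**
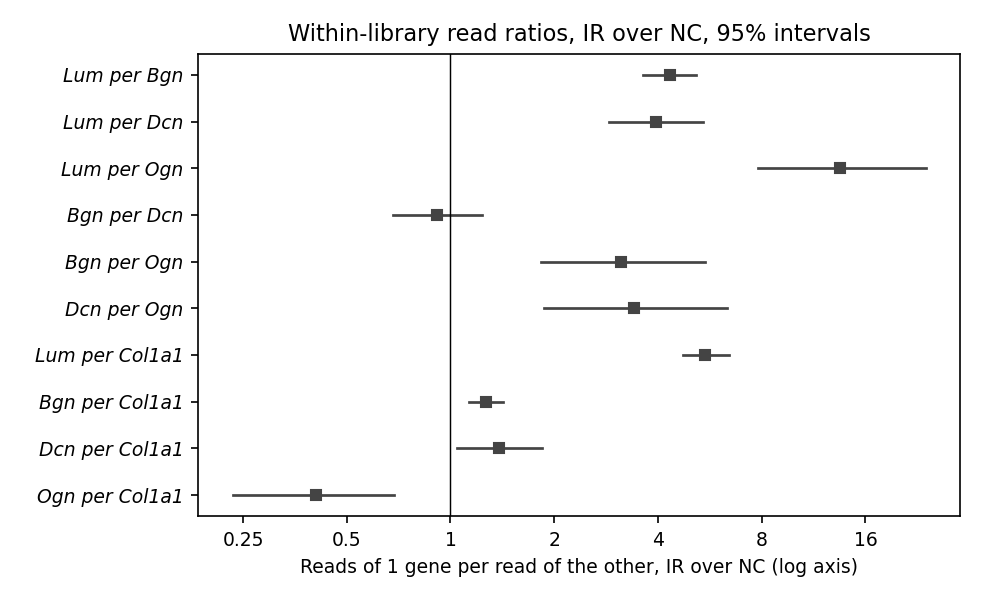
Each square is the number of reads of one gene per read of another in the IR library divided by the same number in the NC library (log axis), with its exact conditional 95% interval; the vertical line marks no difference. The pairs with Lum first lie at 3.96 to 13.5, Bgn per Dcn lies at 0.916 with an interval over the line, and Ogn per Col1a1 lies at 0.406.

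The members' summed counts, 2419 in IR and 1008 in NC, gave a fold of 2.37 (2.20 to 2.55). Without Lum, the other 6 measured members summed to 1070 in IR and 786 in NC, for a fold of 1.34 (1.23 to 1.48). How far the fold of each member depends on the scaling is shown by the plot of folds under 6 scalings. Lum stood between 4.75 and 6.08 in all of them.

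**Figure D4:**
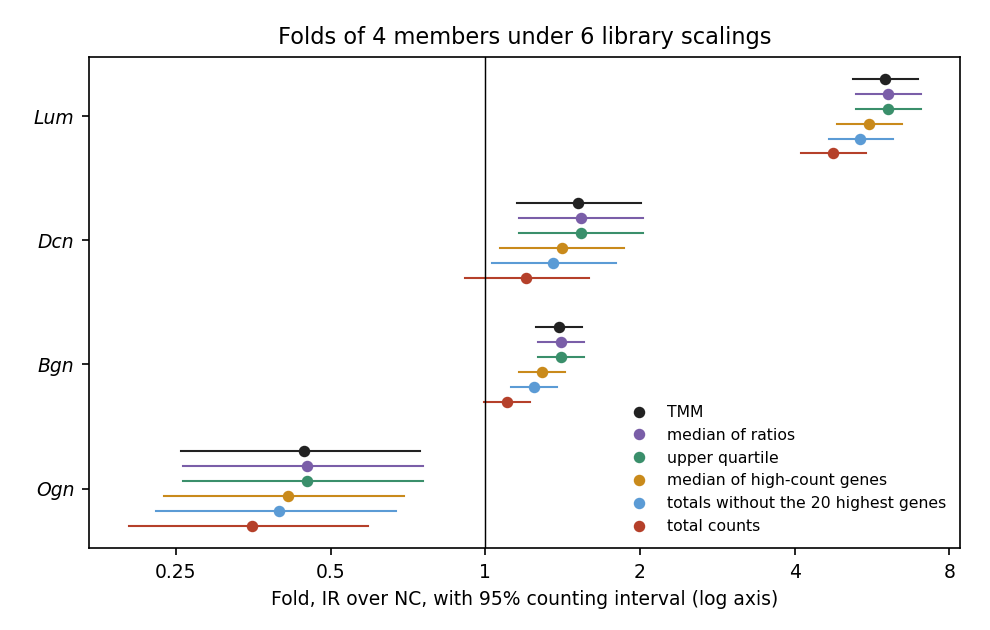
Fold of IR over NC (log axis) for the 4 members with a mean of at least 20 counts, under 6 ways of scaling the libraries (colours), with exact 95% counting intervals; the vertical line marks a fold of 1. Lum stays between 4.75 and 6.08 and Ogn between 0.351 and 0.449, whereas the intervals of Dcn and Bgn reach 1 under total counts (red).

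Several members lie side by side on the chromosomes. Dcn and Lum lie on chromosome 10 on the same strand, 47338 bases apart, with folds of 1.52 for Dcn and 6.0 for Lum. On chromosome 13, Omd and Ogn are separated by 15461 bases, with 11 and 22 counts in IR and 2 and 49 in NC, so that they lay on opposite sides of 1. Among their further neighbours there, Ecm2, a related leucine-rich matrix gene, had 0 counts in IR and 1 in NC. Iars, an aminoacyl-tRNA synthetase gene, had 188 in IR and 276 in NC, and Bicd2 45 in IR and 102 in NC. On chromosome 1, Prelp, Optc and Fmod had at most 4 counts in either library, too few to compare their ratios. Within 200000 bases of Prelp or Fmod, Atp2b4 had 20 in IR and 54 in NC, and Btg2 14 in IR and 16 in NC. Chit1 and Chi3l1 each had 0 in IR and 2 in NC. Around Bgn on the X chromosome, within 200000 bases, Bcap31 had 331 counts in IR and 257 in NC, and Haus7 had 27 in IR and 68 in NC. Slc6a8 had 55 in IR and 46 in NC. The nearest counted gene, Atp2b3, 7152 bases from Bgn, had 5 in IR and 4 in NC. Zfp275 had 7 in each library, Zfp92 0 in IR and 2 in NC, and Dusp9 0 in IR and 6 in NC.

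The rest of the family was at the limit of detection. Of 9 further small leucine-rich genes looked for, 5 were measured, and together they had 20 counts in IR and 25 in NC. None reached a mean of 20 counts. The highest were Tsku, which encodes tsukushi, with 11 counts in IR and 10 in NC, and Podnl1, a podocan-like gene, with 7 in IR and 13 in NC. Optc had 2 in IR and 0 in NC, and Ecm2 and Chadl each had 0 in IR and 1 in NC. Kera, Epyc, Chad and Nyx were not analysed here.

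Among the collagen chains to which these proteoglycans attach, some were higher in IR and some lower, in numbers that depended on the scaling. Of 13 fibrillar and fibril-associated collagen genes whose mean count reached 20, 6 were higher in IR beyond counting error, 1 was lower and 6 were neither, with a median log2 ratio of 0.13. Under total-count scaling 5 were higher and 6 lower, Col1a1 among the lower at 0.865 (0.824 to 0.909). The median was then -0.21, and -0.03 with totals taken without the 20 highest genes. The highest ratios were those of Col11a1 (37 counts in IR and 9 in NC) and Col27a1 (43 in IR and 13 in NC), and the lowest those of Col3a1 (348 in IR and 519 in NC) and Col16a1 (68 in IR and 76 in NC). Col1a2, the second chain of type I collagen, had 1330 counts in IR and 1267 in NC, which gives a fold of 1.04 (0.960 to 1.12), or 0.821 (0.760 to 0.888) under total-count scaling, and was named after its values were seen.

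Enzymes that build the sugar chains of these proteins were taken by chain type. Keratan sulfate, the chain of lumican, is extended on galactose and sulfated by dedicated enzymes. Of the 3 keratan sulfate genes whose mean count reached 20, 2 were higher in IR beyond counting error. B4galt1, a galactosyltransferase, had 229 counts in IR and 120 in NC, and its fold was 1.89 (1.51 to 2.37). Chst1, the keratan sulfate galactose sulfotransferase, had 99 in IR and 53 in NC, and its fold was 1.85 (1.31 to 2.63). The third, St3gal2, which adds sialic acid, had 71 in IR and 65 in NC. Of these 11 genes 8 were measured, and the 5 with fewer reads went both ways. Chst2, a sulfotransferase, had 25 counts in IR and 9 in NC, with a fold of 2.74 (1.24 to 6.68). Under total-count scaling its fold was 2.17 (0.981 to 5.29), an interval that holds 1. B3gnt7 had 3 in IR and 0 in NC, and St3gal1 had 17 in IR and 14 in NC. B4galt4, a galactosyltransferase, had 6 in IR and 19 in NC, with a fold of 0.312 (0.102 to 0.813), and St3gal3, a sialyltransferase, had 1 in IR and 9 in NC, with a fold of 0.110 (0.0025 to 0.792). These 5 were named after their values were seen. The median log2 ratio of the 3 genes above the floor was 0.87, and 0.25 when every measured gene with reads in both libraries was taken.

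Among enzymes of the linker and of chondroitin and dermatan sulfate, the chains of biglycan and decorin, 8 of 19 measured genes had a mean of at least 20 counts. Of these 2 were higher in IR beyond counting error, 2 were lower and 4 were neither, with a median log2 ratio of -0.04. Xylt2, a xylosyltransferase that starts the linker, had 50 counts in IR and 25 in NC, and its fold was 1.98 (1.2 to 3.33). Chpf, which helps to polymerise chondroitin, had 71 in IR and 41 in NC, and it overlaps Obsl1. Chst14, the dermatan sulfate sulfotransferase, had 28 in IR and 52 in NC, and was 1.88-fold lower (1.17 to 3.09). Fam20b, the xylose kinase of the linker, had 20 in IR and 39 in NC. Under total-count scaling 0 of the 8 were higher and 3 lower (Chst14, Fam20b and Ugdh), and the interval of Xylt2, whose fold was then 1.56, held 1.

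Proteases that trim or degrade the core proteins, with the enhancer of one of them, were measured for 12 of 14 genes. Of the 7 whose mean count reached 20, 2 were higher in IR beyond counting error, 0 were lower and 5 were neither. Adamts4, an aggrecanase, had 61 counts in IR and 34 in NC, and its fold was 1.77 (1.15 to 2.78), and Mmp14, a membrane collagenase, had 288 in IR and 197 in NC. Pcolce, the enhancer of procollagen C-proteinase, had 1243 in IR and 1217 in NC and overlaps Fbxo24, and Mmp2, a gelatinase, had 98 in IR and 93 in NC. The median log2 ratio of the 7 was 0.20. Under total-count scaling it was -0.14, with 0 higher, as the intervals of Adamts4 (0.908 to 2.20) and Mmp14 (0.951 to 1.38) then held 1, and 1 lower (Pcolce).

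Among signalling partners and larger proteoglycans whose mean count reached 20, none was lower in IR beyond counting error under TMM scaling. Of 9 receptors and ligands bound by the family, 6 were higher, with a median log2 ratio of 0.57, and under total-count scaling 3 were higher, with a median of 0.24. Wisp1, a matricellular protein that binds decorin and biglycan, had 30 counts in IR and 14 in NC, and Erbb4, a receptor of the EGF receptor family, 28 in IR and 14 in NC. Tgfb1, the growth factor bound by decorin, had 76 in IR and 72 in NC, and Met, the hepatocyte growth factor receptor, 33 in IR and 27 in NC. The partners with fewer reads went both ways. Cd14, Tlr2, Fas and Kdr had 27, 15, 11 and 22 counts in IR and 0, 2, 4 and 12 in NC. Tgfb3, Itga2, Tlr4 and Tgfb2 had 0, 8, 12 and 7 in IR and 16, 20, 18 and 12 in NC. Under TMM scaling the fold intervals of Cd14 and Tlr2 lay above 1, and those of Tgfb3 and Itga2 below 1. Of 11 other matrix and cell-surface proteoglycans, 4 were higher, with a median of 0.32, and under total-count scaling 1 was higher (Sdc1), with a median of -0.01. Sdc1 and Sdc3, both syndecans, had 146 and 113 counts in IR and 75 and 77 in NC, while Gpc6, a glypican, had 31 in IR and 28 in NC and Sdc4 288 in IR and 249 in NC. Of the proteoglycans with fewer reads, Srgn had 30 counts in IR and 0 in NC, and Spock1 10 in IR and 0 in NC. Bcan, Ncan and Spock2 had 7, 5 and 4 in IR and 4, 2 and 2 in NC, while Gpc3 had 1 in IR and 2 in NC. Of all 5989 genes, 23.5% were higher beyond counting error and 23.7% lower, against 38.2% and 25.8% of those whose mean count reached 100. These shares also stand beside the collagen, sugar-chain and protease lists above. All these lists are described and not tested.

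**Figure D5:**
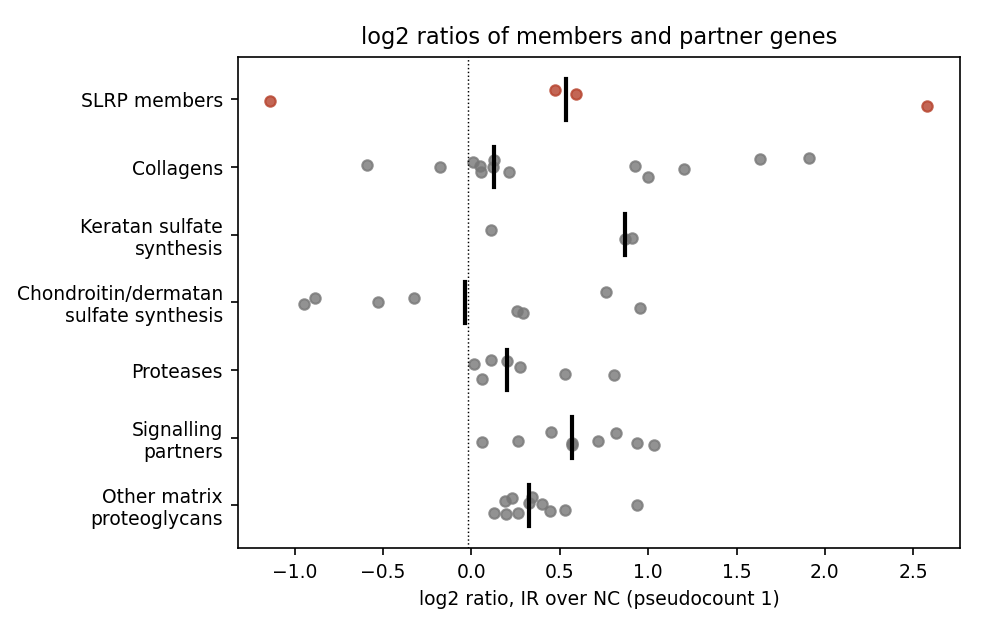
Points are genes whose mean count reached 20, placed by log2 ratio of IR over NC after a pseudocount of 1 (x), in the members (red, 4 genes) and 6 lists of partner genes (grey, 3 to 13 genes each); thick bars are list medians and the dotted line is the median of all 5989 genes. The members run from -1.14 for Ogn to 2.58 for Lum, and the highest partner gene, Col11a1, lies at 1.91.

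Markers of the labelled cell type were present in both libraries. Of 14 fibroblast markers 12 were measured, with 9400 counts in IR and 7794 in NC, led by Fn1 and Col1a1. Of the 8 whose mean count reached 20, 4 were higher in IR beyond counting error and 1 lower (Pdgfra), but 1 was higher and 4 lower under total-count scaling. The 4 with fewer reads split: Mfap5 had 11 counts in IR and 1 in NC, Npnt 17 in IR and 5 in NC, Dpt 0 in IR and 6 in NC, and Pi16 0 in IR and 5 in NC. Summed markers of some other cell types were higher in IR, as Lum was, but in several lists single markers went both ways. Sums given without a fold are of raw counts, and the IR library had more counts in total. Mesothelial markers, 5 measured of 7, summed to 483 reads in IR and 104 in NC, for a fold of 4.59 (3.71 to 5.73), of which Wt1 held 417 in IR and 77 in NC. Msln, the other marker whose mean count reached 20, had 58 in IR and 24 in NC. Its fold was 2.39 (1.46 to 4.02), and 1.89 (1.16 to 3.18) under total-count scaling. Krt19 had 5 in IR and 3 in NC, and Lrrn4 and Upk3b 1 and 2 in IR and 0 in NC. Smooth muscle and pericyte markers, 10 of 11, together had 480 counts in IR and 320 in NC. Synpo2, Des, Mcam and Notch3 had 136, 35, 67 and 63 in IR and 39, 9, 31 and 31 in NC. All 4 were higher beyond counting error under TMM and total-count scaling. Abcc9 (129 in IR and 133 in NC) was neither under TMM scaling and lower under total-count scaling. Cnn1 (44 in IR and 48 in NC) was neither under both. Myh11, Rgs5 and Kcnj8 had 0 in IR and 24, 3 and 2 in NC, while Cspg4 had 6 in IR and 0 in NC. Cartilage, bone and tendon markers, 8 of 10, summed to 132 in IR and 67 in NC, for a fold of 1.95 (1.44 to 2.65). Acan held 67 in IR and 50 in NC, and its fold interval held 1. Sox9, Sp7 and Col2a1 had 31, 13 and 11 in IR and 8, 0 and 1 in NC. Scx and Ibsp had 4 and 3 in IR and 0 in NC, Tnmd 1 in each library, and Mkx 2 in IR and 7 in NC. Epithelial markers, 8 of 16, had 90 counts in IR and 37 in NC, of which Abca3 held 73 in IR and 27 in NC. The others were at a few reads and went both ways. Krt8 had 9 in IR and 1 in NC, and Ager, Sftpa1 and Foxj1 had 4, 2 and 2 in IR and 0 in NC. Sftpd had 0 in IR and 7 in NC, and Epcam and Nkx2-1 each had 0 in IR and 1 in NC. Endothelial markers, 10 of 10, summed to 7076 counts in IR, against 2757 in NC, and Emcn alone held 6842 in IR and 2618 in NC, with Cdh5 at 1 in IR and 0 in NC. Of the 4 whose mean count reached 20, Emcn, Flt1 and Vwf were higher beyond counting error under TMM and total-count scaling. Tie1 was lower under both, with 21 counts in IR and 53 in NC, a TMM-scaled fold of 0.391 (0.224 to 0.660). Cldn5 had 0 in IR and 5 in NC. Leukocyte markers, 8 of 13, had 455 in IR and 333 in NC, with Ptprc at 8 in IR and 0 in NC. Most of these reads were those of Cd74 (244 in IR and 169 in NC) and Cd3e (178 in IR and 157 in NC). Their folds were 1.43 (1.17 to 1.75) and 1.12 (0.899 to 1.40), and under total-count scaling both intervals held 1. The part of other cell types in the difference of Lum was not tested.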

How the data were processed

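Footprints of mouse lung fibroblasts were counted in 1 IR and 1 NC library, grouped by their titles. The deposited table gives whole-number counts of mapped reads per gene, per the file headers. Per the submitters' processing notes, the build was mm10 and the tools were HTSeq 0.9.1, TopHat2, Bowtie, cutadapt 1.9.3, DESeq2 and edgeR, with no role stated. The strand setting, the annotation release and the handling of multiply matching reads are not given in the sources used. The 2 columns of log CPM were not used.

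Libraries were scaled with TMM factors (0.890 for IR, 1.12 for NC) from edgeR 4.0.16 in R 4.3.3, used for scaling alone. Folds carry no pseudocount, and log2 ratios a pseudocount of 1. A fold's 95% interval comes from the exact Clopper-Pearson interval of the share of its counts found in IR. "Beyond counting error" means that this interval leaves out 1. Shares and medians are over genes whose mean count reached 20. PCR copies cannot be recognised, so intervals, and the limit of 3 counts for a gene at 0, describe counting alone, and 1 library per group allows no test. Members and lists were chosen with earlier results of these data known. Named were all members, the 2 highest and 2 lowest ratios of each partner list, and the 5 genes nearest to Lum. Further partner genes, cell type markers and chromosome neighbours were named outside this rule, with their values known. Other scalings, floors and pseudocounts were tried. The interval was also run on simulated counts that held counting error alone, with library sizes known. That run says nothing about replicate spread, PCR copies or scaling. Upstream sequences are those of RefSeq (GRCm38.p6), matched by symbol. Python 3.11.15 was used with scipy 1.17.1 and pandas 2.3.3.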

Additional observations from a re-analysis of the deposited data

How the results depend on the processing

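With 1 library per group no replicate could be left out, and no paired analysis was possible because each group has 1 library. Lum was higher in IR and Ogn lower under each of the 6 scalings. Scaling by total counts, which shifts the median of all genes by -0.32 on the log2 scale, gave a fold of 4.75 for Lum, 1.10 for Bgn, 1.88 for the summed members, 1 member with an interval above 1, a members' median log2 ratio of 0.20, a collagen median of -0.21, a protease median of -0.14, and 412 genes at least 2-fold higher and 1199 lower, against 679 and 685 under TMM. Totals without the 20 highest genes (shift -0.15) gave 2.12 for the summed members and 1.24 for Bgn, and the median of genes with a mean of 100 counts shifted all ratios by -0.10. Without Lum the summed fold was 1.34. A floor of 10 mean counts gave 1129 genes higher and 1166 lower. A floor of 100 gave 164 and 59 and left 0 members at least 2-fold lower, since Ogn falls below it. With no floor these were 1775 and 1895 genes, 2 members were at least 2-fold higher (Lum and Omd), and the keratan sulfate median was 0.25. The floor of 100 left no linker, chondroitin or dermatan sulfate gene to give a median. Other values stayed within their counting intervals or within 1.5 times the main count. Depth limits Omd, Fmod, Prelp and the wider family, which had at most 13 counts in either library.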
